A study of Drosophila melanogaster with 12 samples.

Results

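Of 352 summits bound by Pho and Sfmbt in Drosophila melanogaster ovaries, 206 (58.5%) lay within 1000 bp of a gene's 5′ end, and these promoter-proximal summits are described here against the 146 farther ones. The rule took the distance from each deposited summit to the nearest 5′ end on its chromosome arm, with 1 outermost 5′ end per gene from the gene models of the count table, so that a farther summit can still lie at an inner promoter. No binding or expression value entered the rule. Stretches within 1000 bp of a 5′ end make up 20.1% of the 5 arms that hold summits. The promoter-proximal share was 32 of 57 summits on 2L, 39 of 63 on 2R, 43 of 63 on 3L, 51 of 96 on 3R and 41 of 73 on X. How the authors selected the 352 summits is not given in the sources used here.

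Pho is a zinc-finger protein that binds DNA, and Sfmbt is its partner in PhoRC, the Polycomb group complex that recognises Polycomb response elements. Such elements recruit the Polycomb repressive complexes PRC1 and PRC2, which keep developmental regulators such as the HOX genes off in cells where they are not used. In flies these elements can lie at the promoter of the gene or many kilobases away from it. An ovary holds both the germline, where the oocyte and its nurse cells grow, and the somatic follicle cells around it.

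RNA was sequenced from ovaries with Sfmbt RNAi (a UAS hairpin, Sfmbt RNAi-1, TRiP.HMS00473) and from ovaries with mCherry RNAi, 3 biological replicates each, all from females 2 days old. Both groups carried nanos-Gal4, a driver that acts in the germline, so the somatic cells of Sfmbt RNAi ovaries keep the gene. ChIP-seq used whole ovaries: anti-GFP for GFP-Sfmbt (knock-in) flies and for untagged Oregon-R flies, and anti-Pho for untagged yw flies, with 2 biological replicates in each of the 3 groups, also from females 2 days old, and the tissue was fixed in 2% paraformaldehyde for 10 minutes. The deposited table gives 1 value in RPM (reads at the summit per 1000000 reads) per summit and ChIP group, so ChIP values carry no replicate error, no test between them was possible, and differences in RPM are given as descriptions of these libraries. RNA libraries held 34057506 to 51297961 counted fragments. Sfmbt itself had 43.8, 43.8 and 36.7 CPM (normalised fragments per 1000000) in the Sfmbt RNAi libraries, against 146.1, 122.4 and 123.2 CPM in the mCherry RNAi libraries (log2 fold change −1.66 with an SE of 0.11, adjusted p = 0.000119 in edgeR). RNA came from whole ovaries, in which fewer cells of a type and less RNA per cell cannot be told apart. ChIP used whole ovaries too, so a summit and the transcripts of its gene need not come from the same cells.

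The 2 classes of summits had similar median ChIP signals of both PhoRC subunits. Median Pho signal was 4.39 RPM at promoter-proximal summits (quartiles 3.14 and 7.02) and 4.95 RPM at farther summits (quartiles 2.76 and 10.1). Median GFP-Sfmbt signal was 0.871 RPM at promoter-proximal summits (quartiles 0.626 and 1.34) and 0.886 RPM at farther summits (quartiles 0.611 and 1.48). The anti-GFP signal of untagged chromatin, which measures the background of that antibody, had a median of 0.336 RPM in both classes. The order of the medians turned with other settings: a limit of 250 bp gave 4.77 RPM Pho and 0.947 RPM GFP-Sfmbt at promoter-proximal summits and 4.39 and 0.871 RPM at farther ones, and 1 summit per gene gave 4.39 and 0.871 RPM at promoter-proximal and 4.33 and 0.810 RPM at farther summits. The upper ends differed: the highest Pho value was 45.4 RPM among promoter-proximal summits and 124.6 RPM among farther ones. The 25 highest Pho values of the table fell on 13 promoter-proximal and 12 farther summits, and the 50 highest on 25 of each.

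**Figure D1:**
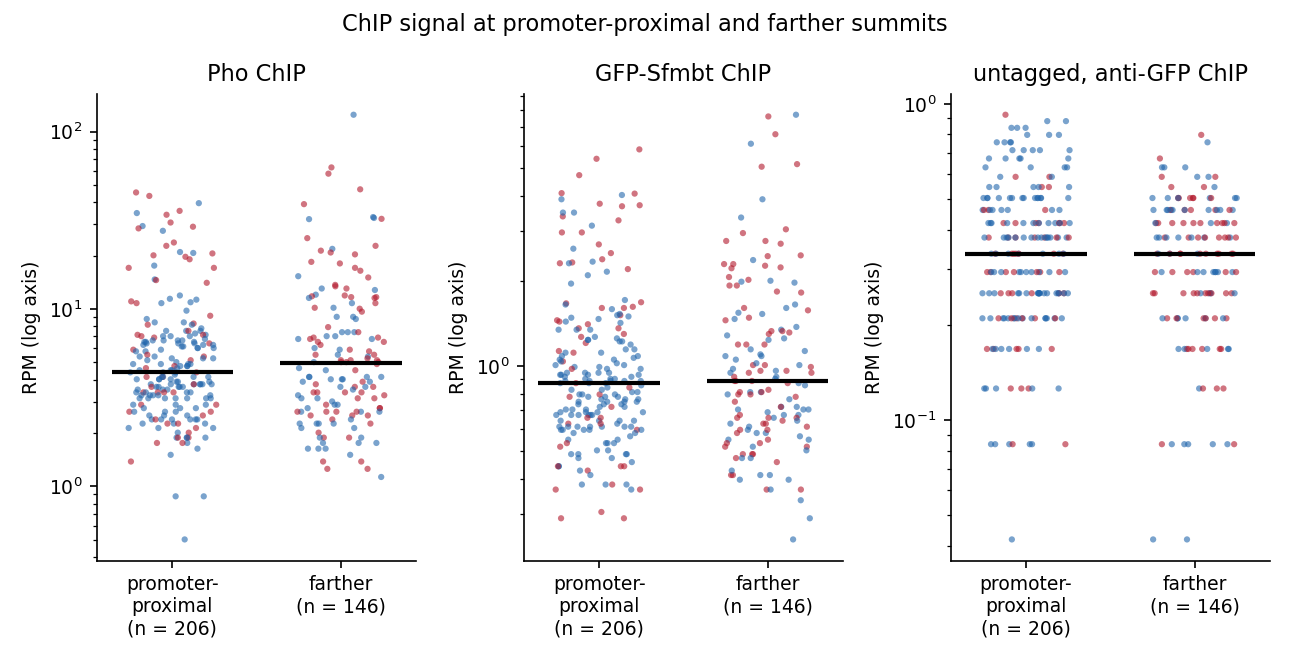
Authors' RPM of Pho, GFP-Sfmbt and untagged ChIP (log axes) at the 206 promoter-proximal and 146 farther summits; each point is 1 summit, red where the assigned gene was under 1 control TPM and blue where it was at 1 or more, and bars are medians. The medians of the 2 classes lie close together (Pho 4.39 and 4.95 RPM), and 1 farther summit with an untagged value of 0 is not drawn.

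GFP-Sfmbt exceeded the untagged background at 194 of 206 promoter-proximal summits and at 137 of 146 farther summits. A signal of at least 2 times the background was reached at 132 promoter-proximal summits (64.1%, 95% Wilson interval 57.3 to 70.3) and at 106 farther summits (72.6%, 64.9 to 79.2). The median ratio of GFP-Sfmbt to untagged signal was 2.58 at promoter-proximal summits and 2.91 at 145 farther summits with a background above 0. The highest ratio, 34.7, stood at grn, a GATA-type transcription factor gene. The 12 promoter-proximal summits at or below background belonged to Sema1b, CG3689, HIPP1, Oda, geminin, BuGZ, Ahcy, Lim3, Liprin-gamma, sta, Six4 and osa, with ratios down to 0.546 at Ahcy. Between log2 RPM of Pho and of GFP-Sfmbt, Pearson's r was 0.752 and Spearman's rho 0.645 over the 206 promoter-proximal summits. Split by the assigned gene, r was 0.870 and rho 0.887 over 58 summits of genes under 1 control TPM, and 0.606 and 0.449 over 148 summits of genes at 1 TPM or more. Over the 146 farther summits r was 0.804 and rho 0.717. GFP-Sfmbt and untagged signal, which share the antibody, had r of 0.0844 over the same 206 summits.

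**Figure D2:**
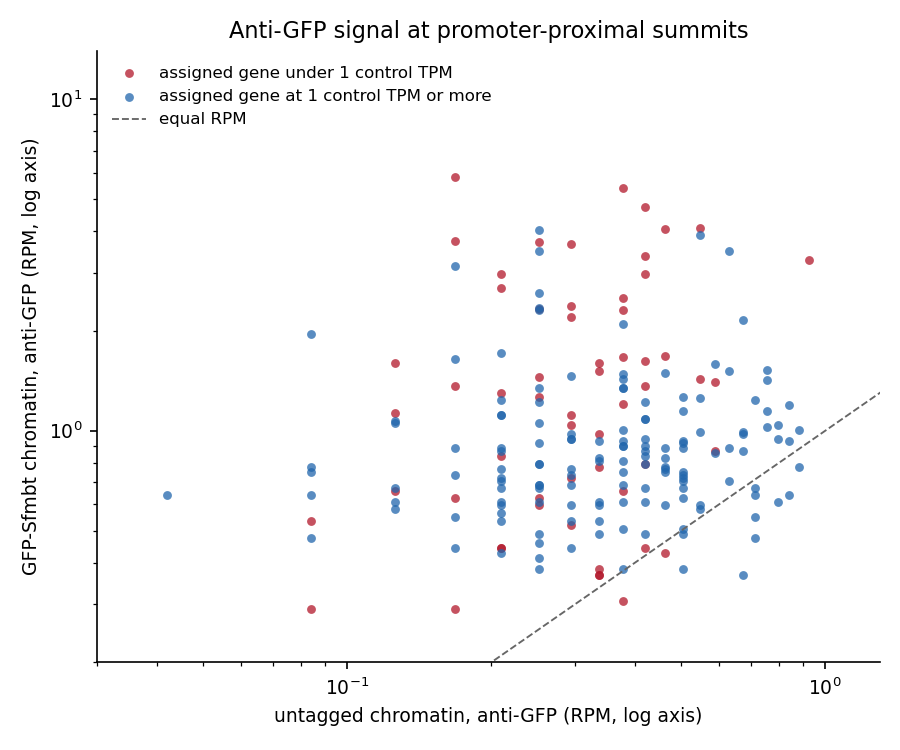
Anti-GFP ChIP signal of GFP-Sfmbt chromatin (vertical, RPM, log axis) against that of untagged chromatin (horizontal, RPM, log axis) at 206 promoter-proximal summits, coloured by the control expression of the assigned gene; the dashed line marks equal values. Most points (194) lie above the line, and the 12 others lie on or below it.

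Each summit carries the authors' gene assignment, and the control levels of these genes differed between the classes by more than the median ChIP signals did. By the authors' mean TPM (transcripts per 1000000, a level that allows for gene length) in mCherry RNAi ovaries, the assigned genes had a median of 29.1 TPM for promoter-proximal summits (quartiles 0.491 and 87.0) and 0.475 TPM for farther summits (quartiles 0.0317 and 23.2). Genes at 1 TPM or more, called expressed below, held 148 of 206 promoter-proximal summits (71.8%, 95% Wilson interval 65.3 to 77.5) and 68 of 146 farther summits (46.6%, 38.7 to 54.7). These shares and intervals count a gene once for each of its summits. With 1 row per gene the shares were 71.4% for promoter-proximal and 54.1% for farther summits. The share of genes at 1 TPM or more was 47.4% over all genes of the count table and 57.4% over protein-coding genes. Genes at 100 TPM or more held 48 promoter-proximal summits (23.3%) and 9 farther summits (6.16%). Genes under 1 TPM, called silent below, held 58 promoter-proximal and 78 farther summits. The gene with the nearest 5′ end was the assigned one at 176 of 206 promoter-proximal summits and at 84 of 146 farther summits.

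The promoter-proximal summits fell into unlike sets by position once the expression of the gene was considered. At silent genes 47 of 58 summits (81.0%, 95% Wilson interval 69.1 to 89.1) lay upstream of the nearest 5′ end, with a median signed position of −177.5 bp (quartiles −300.75 and −80.5, negative meaning upstream). At expressed genes 57 of 148 summits (38.5%, 31.1 to 46.5) lay upstream, with a median of 39 bp (quartiles −50.75 and 328.5). The stretch 50 to 350 bp upstream held 34 of 58 summits of silent genes (58.6%) and 22 of 148 of expressed genes (14.9%). Summits within 50 bp of the 5′ end numbered 2 at silent and 39 at expressed genes, and those more than 50 bp downstream numbered 11 and 71, in the same order. Over the promoter-proximal summits as a whole the upstream share was 104 of 206 (50.5%), and among farther summits it was 74 of 146 (50.7%). Intervals cover counting error only, since summits are not replicates. Position was taken from the outermost 5′ end of each gene, so a summit counted as downstream can lie at or upstream of an inner promoter.

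**Figure D3:**
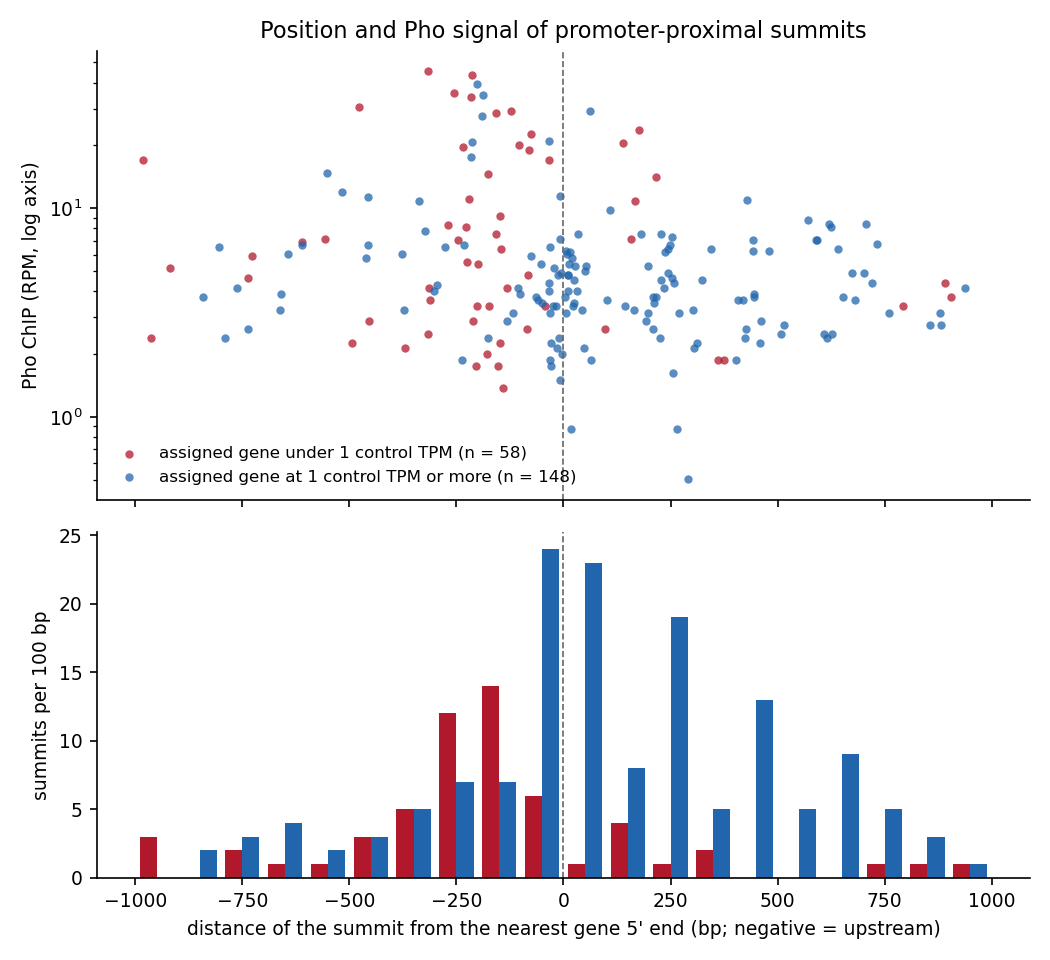
Position of the 206 promoter-proximal summits relative to the nearest gene 5′ end, 1 outermost end per gene (horizontal, bp, negative upstream), against Pho ChIP signal (top, RPM, log axis) and as counts per 100 bp (bottom). Summits of genes under 1 control TPM (red, 58) gather upstream at a median of −177.5 bp and include 17 of the 25 strongest, while summits of genes at 1 TPM or more (blue, 148) gather at and downstream of the 5′ end.

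Median signal strength also differed by the expression of the gene, though not in every subset. Promoter-proximal summits of silent genes had medians of 5.71 RPM Pho and 1.33 RPM GFP-Sfmbt, and those of expressed genes 4.14 RPM Pho and 0.810 RPM GFP-Sfmbt. The untagged background ran the other way, with 0.315 RPM at silent and 0.378 RPM at expressed genes, and the median ratio of GFP-Sfmbt to background was 3.93 and 2.36. The quotient of Pho to GFP-Sfmbt RPM, with no background taken off, was nearly equal, at 5.02 for silent and 5.07 for expressed genes. Background made up a larger part of the GFP-Sfmbt signal at expressed genes, and Pho has no background value. The quotient therefore does not give the balance of both proteins. Silent genes outside the list of transcription factors given below held 19 promoter-proximal summits, with medians of 3.64 RPM Pho and 0.795 RPM GFP-Sfmbt. Expressed genes of that list held 6, with medians of 17.7 and 2.47 RPM. Among farther summits, silent genes had medians of 5.39 RPM Pho and 0.947 RPM GFP-Sfmbt and expressed genes 4.01 and 0.810 RPM. Of the 25 promoter-proximal summits with the most Pho signal, 21 lay upstream and 17 belonged to silent genes. Of the 25 with the least, 13 lay upstream and 8 belonged to silent genes. Of the 50 with the most, 33 lay upstream and 25 belonged to silent genes, against 24 and 15 of the 50 with the least.

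The background signal also depended on position. At the 39 summits of expressed genes within 50 bp of the 5′ end the untagged median was 0.546 RPM, the GFP-Sfmbt median 0.917 RPM and the median ratio 1.59. At the 71 summits of expressed genes farther downstream these were 0.294 RPM, 0.733 RPM and 2.50, and at the 22 summits 50 to 350 bp upstream 0.294 RPM, 0.940 RPM and 3.36. Summits at the 5′ ends of expressed genes therefore had the highest background and the lowest ratio of these sets. The median untagged value at promoter-proximal summits amounts to only 8 steps of the deposited values, so single ratios are imprecise. Surroundings differed too: another 5′ end lay within 1000 bp at 6 of 58 summits of silent genes and at 76 of 148 summits of expressed genes. Summits between 2 divergent 5′ ends numbered 2 and 23, in the same order.

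The strongest promoter-proximal summits stood at genes of developmental transcription factors. The top Pho value, 45.4 RPM, lay 316 bp upstream of unc-4 (X:17768253), a homeodomain gene of motor neurons, with 3.38 RPM GFP-Sfmbt and 0.420 RPM untagged. Next came oc (X:8650895), a homeodomain gene of head patterning, with 43.4 RPM Pho and 4.08 RPM GFP-Sfmbt 214 bp upstream. The posterior patterning gene cad (2L:20770528) followed with 39.5 RPM Pho and 4.02 RPM GFP-Sfmbt 203 bp upstream. The pair-rule gene opa (3R:4852558) had 35.8 RPM Pho 255 bp upstream, the HOX gene abd-A (3R:16830236) 34.7 RPM 187 bp upstream, and the segment polarity gene en (2R:11528425) 33.99 RPM 215 bp upstream. Further values of this size belonged to eyg of the Pax family (3L:12468143) with 29.1 RPM 122 bp upstream and grn (3R:8181602) with 28.5 RPM 158 bp upstream. In the same range stood dhd (X:5312233), a thioredoxin gene of the late female germline, with 29.4 RPM Pho and 3.88 RPM GFP-Sfmbt 62 bp downstream of its 5′ end. dhd alone among these 9 genes had its summit downstream, and cad, abd-A and dhd alone were at 1 control TPM or more, at 50.1, 1.55 and 3434 TPM by the authors' mean.

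GFP-Sfmbt signal was highest at grn (5.82 RPM), at the odd-skipped family gene drm (5.39 RPM, 2L:3539423, 176 bp downstream), at the homeodomain gene lbe (4.72 RPM, 3R:21446614, 77 bp upstream), at oc (4.08 RPM) and at the wing gene vg (4.06 RPM, 2R:12884527, 105 bp upstream). All 5 were silent in control ovaries, and their untagged signal lay between 0.168 and 0.546 RPM. Build and coordinates are those of the deposited table, BDGP6.

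A list of HOX, other homeobox and other developmental transcription factor genes was written from general knowledge, but with earlier results of these data known. It held 43 genes with 45 promoter-proximal summits. Of these 45 summits 39 (86.7%) belonged to silent genes and 39 (86.7%) lay upstream, with medians of 8.15 RPM Pho, 1.68 RPM GFP-Sfmbt and 0.294 RPM untagged and a median position of −203 bp. The other 161 promoter-proximal summits had 19 at silent genes (11.8%) and 65 upstream (40.4%), with medians of 4.01 RPM Pho and 0.795 RPM GFP-Sfmbt and a median position of 32 bp. Smaller sets, split at 1 TPM, give list and silence separately. The 19 summits of silent genes outside the list had a median of 3.64 RPM Pho, with 13 upstream. The 6 summits of listed factors at 1 TPM or more, among them cad, abd-A and the Iroquois gene mirr, had a median of 17.7 RPM Pho, with 5 upstream. With 6 summits, and abd-A just over the limit at 1.55 TPM, this split cannot separate list from silence. The same list held 56 farther summits of 28 genes, with medians of 6.90 RPM Pho and 1.22 RPM GFP-Sfmbt.

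Among the HOX genes, which specify segment identity, 4 had a promoter-proximal summit. Dfd had 19.7 RPM Pho 234 bp upstream (3R:6791602), abd-A is given above, and pb had 1.88 RPM Pho 362 bp downstream (3R:6741701). The summit assigned to Antp had 20.6 RPM Pho and lay 140 bp downstream of the 5′ end of a long non-coding RNA gene, CR45899 (3R:7000632). Abd-B and Ubx had farther summits only, the highest with 62.8 RPM Pho at Abd-B and 13.4 RPM at Ubx. Of the homeobox genes outside the HOX group 25 had promoter-proximal summits and 7 farther ones only. Their 27 promoter-proximal summits lay upstream in 26 cases and belonged to silent genes in 25. The other developmental factors had 14 genes with promoter-proximal summits, 11 of 14 upstream and 11 of 14 at silent genes.

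Genes of the Polycomb and Trithorax systems also carried promoter-proximal summits, all at expressed genes. ph-p and ph-d encode the Polyhomeotic subunits of PRC1. ph-p had 4.01 RPM Pho 302 bp upstream (X:2138673) and 2.89 RPM 192 bp downstream (X:2138179), and ph-d 5.90 RPM 75 bp upstream (X:2123361). Jarid2, a cofactor of PRC2, had 4.77 RPM Pho 13 bp upstream, but its GFP-Sfmbt signal of 1.15 RPM stood over an untagged signal of 0.756 RPM. cg, which encodes a zinc-finger protein of Polycomb response elements, had 3.26 RPM Pho 302 bp downstream. The remodeller genes Bap60, brm, kis and osa of the Trithorax list had 7.15, 2.26, 5.77 and 1.88 RPM Pho, and the osa summit had less GFP-Sfmbt (0.474 RPM) than untagged signal (0.714 RPM). ptc, the Hedgehog receptor gene, had 11.04 RPM Pho 220 bp upstream and was the 1 gene of the signalling list with a promoter-proximal summit. The lists for PhoRC itself and for chorion, muscle sheath, hemocyte, fat body, gut, ovarian germline and follicle cell genes had 0 members among the promoter-proximal genes, and the neuron list had elav.

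At the other end of expression, the 5 genes with the highest control levels were dhd, sta and RpS5b, which encode ribosomal proteins, Tctp, and the tubulin gene alphaTub84B. RpS5b had 20.9 RPM Pho and 2.15 RPM GFP-Sfmbt 34 bp upstream at 1775 TPM (3R:14901597). sta had 3.39 RPM Pho 144 bp downstream at 2404 TPM, with 0.642 RPM GFP-Sfmbt against 0.714 RPM untagged (X:1483269). Tctp had 2.38 RPM Pho 11 bp upstream at 1900 TPM (3R:11210236), and alphaTub84B had 7.53 RPM Pho 227 bp downstream at 1248 TPM (3R:7086826). dhd and RpS5b thus combined summits among the 25 strongest promoter-proximal ones with some of the highest transcript levels, whereas sta and Tctp lay below the median Pho signal. Whether binding and transcripts lay in the same cells of the ovary was not tested.

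In 18 genes, 12 of them silent, a promoter-proximal and a farther summit were assigned to the same gene. The promoter-proximal one had the higher Pho signal in 9 and the higher GFP-Sfmbt signal in 11. en had 33.99 RPM Pho near its 5′ end and 18.4 RPM at its farther summit, and drm 23.7 and 5.90 RPM. abd-A had 34.7 RPM near its 5′ end and up to 124.6 RPM at 4 farther summits. oc was higher near its 5′ end in Pho, with 43.4 and 20.8 RPM, and lower there in GFP-Sfmbt, with 4.08 and 5.16 RPM. At the limit of the rule, the last summits inside were those of CG33453 (981 bp, 17.1 RPM Pho), knrl (963 bp, 2.38 RPM) and dco (937 bp, 4.14 RPM), and the first outside those of Antp (1003 bp, 18.1 RPM), Ncoa6 (1006 bp, 3.26 RPM) and nrv1 (1021 bp, 5.90 RPM). The summits farthest from any 5′ end were assigned to CG9650 (55061 bp), bi (49271 bp) and Lim1 (33391 bp).

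The knockdown asked what happens to these genes when Sfmbt is reduced in the germline. pho RNA was lower as well in Sfmbt RNAi ovaries (log2 fold change −0.75 with an SE of 0.11, adjusted p = 0.00271 in edgeR). phol, also of the PhoRC list, was not called (−0.19 with an SE of 0.10, adjusted p = 0.176 in edgeR). The part of the lower pho RNA in the changes below was not tested. Strong rises occurred at a few promoter-proximal genes, among them Gsc, CG32814, cona and ph-p, while most genes with the strongest summits were too low to test or did not pass the test. Of 196 genes assigned to promoter-proximal summits 193 were found in the count table and 151 passed the filter on low counts. Of these 151 tested genes 52 (34.4%) were called at an edgeR adjusted p of 0.05, where 34.7% of all 9667 tested genes were called. In the direction of higher in Sfmbt RNAi, 24 were called (15.9%), against 15.2% of all tested genes, and in the direction of lower 28 (18.5%), against 19.4%. The promoter-proximal genes were thus called at close to the background rate in both directions. Their median log2 fold change was 0.01 (quartiles −0.23 and 0.24), against −0.04 over all tested genes, and 10 of the 52 changed by at least 2-fold. Of 93 genes with farther summits only, 70 were tested, 14 rose and 9 fell. Without mCherry RNAi replicate 2, 31 promoter-proximal genes were called (20.4%) against 17.96% of all tested genes. Rises were then called in 10 of 152 tested promoter-proximal genes and in 706 of all 9776 tested genes. Without mCherry RNAi replicate 3, rises were called in 15 of 155 and in 808 of 9998, in the same order.

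Chorion gene transcripts, made by follicle cells late in egg development, moved with the knockdown: their summed level was 7547 to 20193 CPM in Sfmbt RNAi libraries and 35270 to 50570 CPM in mCherry RNAi libraries, with 9 of 9 genes lower. A list of follicle cell genes, which shares Cp36 with it, had 11048 to 16591 CPM in Sfmbt RNAi and 16592 to 19967 CPM in mCherry RNAi libraries. A list of ovarian germline genes had 1613 to 1985 CPM in Sfmbt RNAi and 1163 to 1535 CPM in mCherry RNAi libraries, with each of the 5 germline and 5 follicle cell genes measured above 0 in mCherry RNAi. The neuron list had 262 to 286 CPM in Sfmbt RNAi and 187 to 198 CPM in mCherry RNAi libraries, with 6 of 8 tested genes higher. Muscle sheath genes ranged over 983 to 2359 CPM in Sfmbt RNAi and 1690 to 2138 CPM in mCherry RNAi libraries, hemocyte genes over 736 to 1028 and 800 to 883 CPM, fat body genes over 1039 to 1854 and 1293 to 1621 CPM, and gut genes over 147 to 304 and 287 to 2098 CPM, in the same order. Of the ovarian germline genes 3 of 5 tested were called higher, and of the follicle cell genes 2 of 5 were called lower. Called lower were also 1 of 15 tested muscle sheath, 1 of 8 hemocyte, 2 of 9 fat body and 1 of 12 gut genes. Over all tested genes 15.2% were called higher and 19.4% lower. The part of such shifts in the changes given next was not tested.

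**Figure D4:**
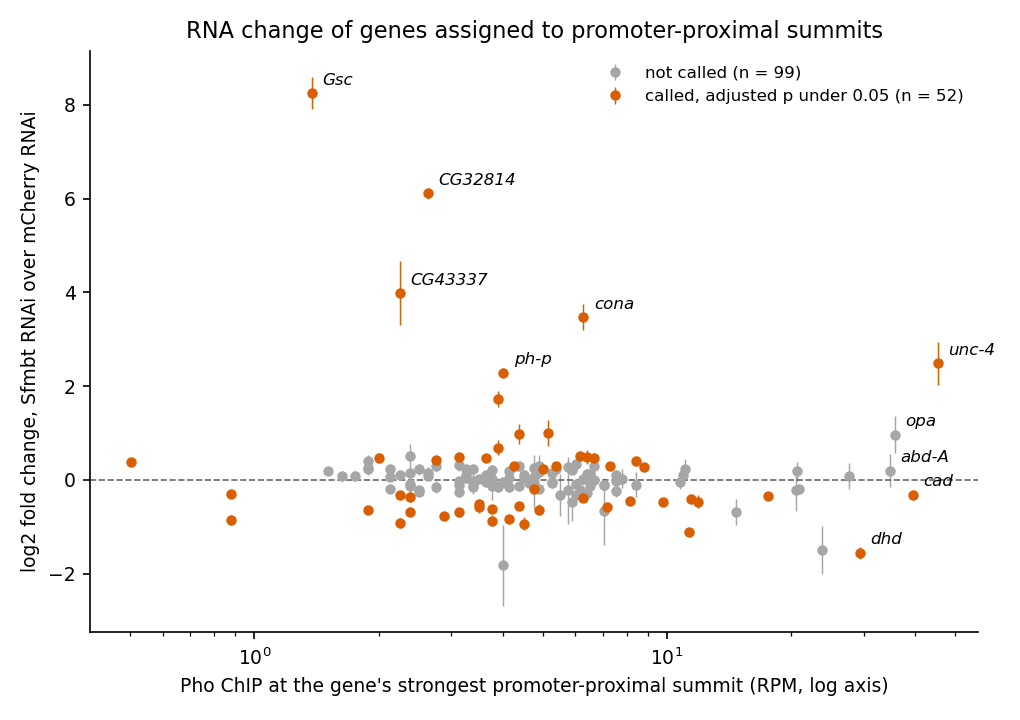
Log2 fold change of Sfmbt RNAi over mCherry RNAi (vertical, error bars are SE) for the 151 tested genes against the Pho ChIP signal of their strongest promoter-proximal summit (horizontal, RPM, log axis); orange marks the 52 genes called. The largest rises stand over a wide range of Pho signal, with Gsc at 1.38 RPM and unc-4 at 45.4 RPM, and most genes lie near 0.

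Gsc, a homeodomain gene of embryonic patterning, rose most. It had 9.43, 9.87 and 11.9 CPM in the Sfmbt RNAi libraries, against 0.0208, 0.0435 and 0.0296 CPM in the mCherry RNAi libraries. The groups lay far apart (log2 fold change 8.25 with an SE of 0.34, adjusted p = 1.08e-05 in edgeR), although the control rested on 4 fragments in all. Its summit, 142 bp upstream (2L:594827), was among the weakest, with 1.38 RPM Pho, 0.718 RPM GFP-Sfmbt and 0.294 RPM untagged. unc-4, with the strongest summit, rose at a low level. It had 0.506, 0.550 and 0.689 CPM in the Sfmbt RNAi libraries, against 0.146, 0.0435 and 0.118 CPM in the mCherry RNAi libraries, which did not overlap (log2 fold change 2.48 with an SE of 0.46, adjusted p = 0.00699 in edgeR; 76 and 13 fragments in all).

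CG32814, a gene of no given function with its summit 98 bp downstream (2.63 RPM Pho), rose by a log2 fold change of 6.11 with an SE of 0.12 (adjusted p = 5.52e-07 in edgeR). It had 90.9, 85.9 and 102 CPM in the Sfmbt RNAi libraries, against 1.43, 1.41 and 1.15 CPM in the mCherry RNAi libraries. The synaptonemal complex gene cona, with a summit 5 bp from its 5′ end (6.27 RPM Pho), had 9.75, 8.49 and 11.5 CPM in the Sfmbt RNAi libraries, against 0.749, 1.17 and 0.739 CPM in the mCherry RNAi libraries. All its Sfmbt RNAi values exceeded all control values (log2 fold change 3.47 with an SE of 0.28, adjusted p = 0.000269 in edgeR). ph-p had 36.4, 32.9 and 36.1 CPM in the Sfmbt RNAi libraries, against 6.63, 7.498 and 7.513 CPM in the mCherry RNAi libraries, again without overlap (log2 fold change 2.28 with an SE of 0.10, adjusted p = 1.22e-05 in edgeR). Its neighbour and paralog ph-d had 34.5, 30.6 and 33.5 CPM in the Sfmbt RNAi libraries, against 29.1, 28.2 and 28.0 CPM in the mCherry RNAi libraries (log2 fold change 0.21 with an SE of 0.07, adjusted p = 0.0598 in edgeR). The ph-d call depended on the processing, with edgeR adjusted p = 0.0410 under RLE scaling. The near-identical stretches of these paralogs make their split uncertain.

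CG1673, which encodes a branched-chain aminotransferase, rose as well, with 81.9, 101.3 and 131 CPM in the Sfmbt RNAi libraries, against 30.0, 31.2 and 33.4 CPM in the mCherry RNAi libraries (log2 fold change 1.73 with an SE of 0.17, adjusted p = 0.000636 in edgeR). CG43337, an RNA gene, had 54 fragments over the Sfmbt RNAi libraries and 3 over the mCherry RNAi libraries, an 18.04-fold ratio whose exact 95% interval from counting error runs over 5.85 to 90.2 (edgeR adjusted p = 0.00532). PCNA2, a second gene for the replication clamp, had a log2 fold change of 1.00 with an SE of 0.28 (adjusted p = 0.0302 in edgeR), a call that was lost in 5 of the 6 fits with 1 library left out (adjusted p up to 0.113). elav, the neuronal RNA-binding protein gene, had 5.81, 5.80 and 5.96 CPM in the Sfmbt RNAi libraries, against 2.50, 3.04 and 3.34 CPM in the mCherry RNAi libraries (log2 fold change 0.98 with an SE of 0.21, adjusted p = 0.0121 in edgeR). Its call was lost without mCherry RNAi replicate 2, and it belongs to the neuron list that was higher as given above.

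The largest fall was that of dhd, with 908, 968 and 999 CPM in the Sfmbt RNAi libraries, against 2467, 2768 and 3188 CPM in the mCherry RNAi libraries (log2 fold change −1.55 with an SE of 0.13, adjusted p = 0.00027 in edgeR). The groups did not overlap, and dhd remained abundant in the knockdown. The chromokinesin gene nod, whose summit had 11.3 RPM Pho 456 bp upstream, had 44.8, 50.6 and 52.6 CPM in the Sfmbt RNAi libraries, against 106, 104 and 112 CPM in the mCherry RNAi libraries (log2 fold change −1.12 with an SE of 0.08, adjusted p = 0.00018 in edgeR). The next falls were those of the cell cycle genes CycB3 (−0.93), Rbf2 (−0.85) and geminin (−0.83), the protease gene 26-29-p (−0.92), CG9135 (−0.87) and rdx (−0.77), whose product acts in Hedgehog signalling. These 6 calls held with each library left out in turn, and the 6 summits had 0.878 to 4.52 RPM Pho. At geminin the GFP-Sfmbt signal (0.611 RPM) was below the untagged one (0.798 RPM), and at Rbf2 both were 0.504 RPM.

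**Figure D5:**
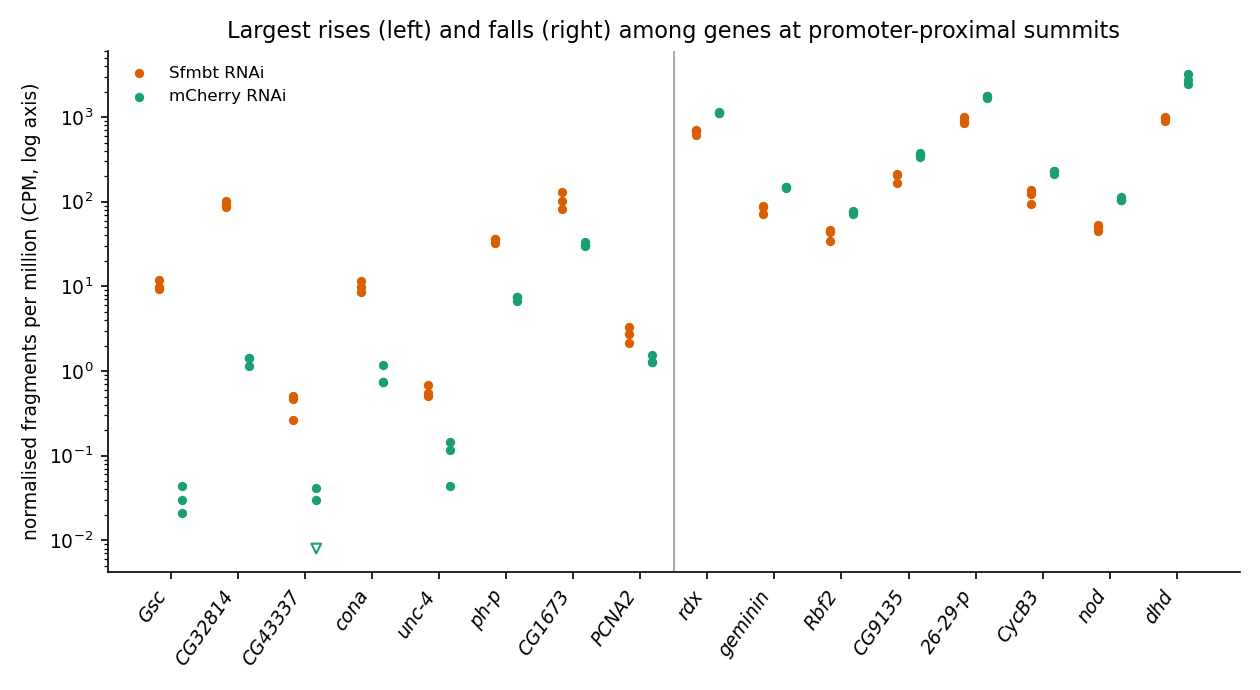
CPM in each library (log axis) of the 8 called genes at promoter-proximal summits with the largest rises (left of the line) and the 8 with the largest falls (right), with 3 Sfmbt RNAi libraries left and 3 mCherry RNAi libraries right for each gene; the open triangle marks a library with 0 fragments. In none of the 16 genes, chosen for their calls and large changes, do the libraries of the 2 groups overlap. The groups did not overlap in 50.3% of all tested genes and in 49.7% of tested promoter-proximal genes.

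Several of the strongest summits stood at genes too low to test. Of the 9 genes named above for their Pho signal, oc, en, eyg and grn lay below the count filter. Of those tested, unc-4, cad and dhd were called and opa and abd-A were not, where 34.7% of all tested genes were called. grn had 0 fragments over the Sfmbt RNAi libraries and 2 over the mCherry RNAi libraries. opa had 0.586, 0.770 and 0.447 CPM in the Sfmbt RNAi libraries, against 0.353, 0.369 and 0.177 CPM in the mCherry RNAi libraries, which did not pass the test (log2 fold change 0.97 with an SE of 0.40, adjusted p = 0.1004 in edgeR). cad had 90.9, 103 and 114 CPM in the Sfmbt RNAi libraries, against 139, 124 and 120 CPM in the mCherry RNAi libraries (log2 fold change −0.32 with an SE of 0.10, adjusted p = 0.0467 in edgeR). That call was lost under RLE scaling, in DESeq2 and in 5 of the 6 fits with 1 library left out, with adjusted p up to 0.179. drm had a log2 fold change of −1.49 with an SE of 0.51 (adjusted p = 0.0573 in edgeR).

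The HOX genes with promoter-proximal summits showed no detectable change. abd-A had 11.7, 8.80 and 4.41 CPM in the Sfmbt RNAi libraries, against 5.49, 8.17 and 7.99 CPM in the mCherry RNAi libraries, with overlap between the groups (log2 fold change 0.20 with an SE of 0.36, adjusted p = 0.707 in edgeR). Of these 4 genes 2 were tested, and 0 were called in edgeR, 0 had an unadjusted p under 0.05 and 0 were called by DESeq2. Antp had a log2 fold change of −0.22 with an SE of 0.44 (adjusted p = 0.733 in edgeR). Dfd had 1 fragment over the Sfmbt RNAi libraries and 3 over the mCherry RNAi libraries, and pb had 2 and 1, so that at this depth nothing can be said of their change. Of the 25 homeobox genes outside the HOX group with promoter-proximal summits 6 were tested, 2 rose and 1 fell, where 15.2% of all tested genes rose and 19.4% fell. Of the 14 other developmental factors 6 were tested and 0 were called in edgeR, with 4 at an unadjusted p under 0.05 and 0 called by DESeq2. Of the 56 silent genes 14 passed the count filter and 5 of these, Gsc, CG32814, CG43337, unc-4 and elav, rose, where 15.2% of all tested genes rose. Of these 5, Gsc, CG43337 and unc-4 were so low in the control that they passed the filter through their level in the knockdown. CG32814 and elav were high enough to pass on their control libraries. The count of 5 thus describes the filter as well as the genes.

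Of the chromatin regulator genes other than ph-p, the Trithorax group genes Bap60 and brm fell, with log2 fold changes of −0.58 ± 0.06 and −0.31 with an SE of 0.07 (adjusted p = 0.00099 in edgeR and 0.0154), and the brm call was lost without Sfmbt RNAi replicate 2 or mCherry RNAi replicate 2. kis, osa, cg and Jarid2 were not called, with log2 fold changes of 0.28 ± 0.14, 0.25 ± 0.10, 0.10 ± 0.07 and 0.06 ± 0.13 SE. corto, which encodes a partner of Polycomb and Trithorax proteins and had 17.6 RPM Pho 217 bp upstream, had a log2 fold change of −0.34 with an SE of 0.09 (adjusted p = 0.0244 in edgeR), a call lost in 4 of the 6 fits with 1 library left out. ptc was not called (0.24 with an SE of 0.22, adjusted p = 0.429 in edgeR). Among the abundant genes, RpS5b, sta and alphaTub84B were not called, with log2 fold changes of −0.20 ± 0.10, −0.05 ± 0.13 and −0.24 ± 0.11 SE. Tctp fell slightly (−0.35 with an SE of 0.11, adjusted p = 0.0488 in edgeR), a call lost in 5 of the 6 fits with 1 library left out.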

How the data were processed

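Gene counts of the deposited table were made by the authors with featureCounts 1.6.3 on STAR 2.7.2a alignments to BDGP6, per the submitters' processing notes. The labels do not explain the column letters: C was read as control (mCherry RNAi) and A, by elimination, as Sfmbt RNAi. Against the fold changes of the authors' deposited table, log2 values from this reading had Pearson's r = 0.993 across 221 genes. RPM per summit and mean TPM per gene were deposited by the authors. No source used here gives the peak caller, the RPM window or any pooling of replicates. In each deposited RPM column all 352 values were whole multiples of 1 step (Pho 0.125, GFP-Sfmbt 0.0153 and untagged 0.0420 RPM), within 0.01 of a step. Exon lengths of the deposited count table gave TPM per library, used as an alternative. The authors' scores, which rank summits, served to take the stronger summits, and their log2 fold changes and adjusted p-values only for the check above.

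Genes were tested with edgeR 4.0.16 (R 4.3.3) by its robust quasi-likelihood F-test on group alone, after TMM scaling and filterByExpr (minimum count 10), and p-values were adjusted by Benjamini-Hochberg over all tested genes. The fit was tested on simulated data. Replicates are biological per the labels. CPM are TMM-normalised. SE derive from the F statistic. Of 196 promoter-proximal genes, Aac11, CG9821 and TER94 (4 summits) were not found in the count table. The alternatives were RLE scaling, DESeq2 1.42.0, other filters, a replicate block, leaving out each library, and other distance limits, thresholds and 5′ ends. Members and gene lists were chosen with earlier results of these data known. Named summits are the 10 with the highest Pho and the 5 with the highest GFP-Sfmbt signal, and the 3 nearest either side of the limit and farthest from it. Named genes are the 5 with the highest control TPM, the 8 called with the largest rise and the 8 with the largest fall, and members of the HOX, Polycomb and signalling lists. 1 summit that this rule takes is not reported here. Others were named after their values were seen.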

Additional observations from a re-analysis of the deposited data

How the results depend on the processing

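No called value reversed its direction, but with 1 library left out 5 uncalled genes changed sign, with log2 fold changes of −0.10 to 0.51 for abd-A (negative without Sfmbt RNAi replicate 1), −0.54 to 0.0985 for Antp and −0.128 to 0.0364 for sta (both positive without Sfmbt RNAi replicate 3), −0.0417 to 0.165 for Jarid2 (negative without Sfmbt RNAi replicate 3 and, at −0.03, without mCherry RNAi replicate 3) and −0.0024 to 0.0974 for dco (negative without mCherry RNAi replicate 3). The order of the classes' Pho and GFP-Sfmbt medians turned at a limit of 250 bp and with 1 summit per gene. Of the main results, 139 of 168 alternatives stayed within the spread set for them. A limit of 250 bp left 115 promoter-proximal summits, with medians of 0.947 RPM GFP-Sfmbt and 0.420 RPM untagged, and it called 32 assigned genes (14 higher, 18 lower in Sfmbt RNAi); the farther summits then had a median of 4.56 control TPM, with 57.8% at 1 TPM or more. The 176 summits ranked strongest had medians of 7.02 RPM Pho and 1.34 RPM GFP-Sfmbt at promoter-proximal summits and 10.2 and 1.48 RPM at farther summits, and 46.97% of the expressed genes' promoter-proximal summits lay upstream; these were chosen by signal, and this upstream alternative was added after the data were seen. With a pseudocount of 1 RPM the GFP-Sfmbt to untagged ratio was 1.38 at promoter-proximal and 1.46 at farther summits. With 1 summit per gene the farther median was 2.40 TPM. At a threshold of 0.1 TPM 78.2% of promoter-proximal and 67.8% of farther summits had an expressed gene, and at 5 TPM 64.6% and 36.3%. Leaving out 1 library at a time gave 1756 to 3295 genes called (706 to 1452 higher, 1050 to 1843 lower) and 31 to 59 promoter-proximal genes (10 to 32 higher, 21 to 27 lower); beyond the smaller number of samples, the cause was not tested. Of the single genes, 9 alternatives gained and 22 lost a call.

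With a replicate block 2959 genes and 50 promoter-proximal genes were called, 46 of them shared with the fit without it; drm then passed (−1.61, adjusted p = 0.0402 in edgeR), and cad, PCNA2 and Tctp did not (adjusted p = 0.103, 0.0622 and 0.0738). Deviations of same-numbered libraries correlated at 0.432, 0.305 and 0.0729, and 3 of 6 libraries correlated best with their own number, so the numbers are not taken as pairs. RLE scaling moved the median of all genes by about 0.03 on the log2 scale and called 56 promoter-proximal genes (30 higher, 26 lower). The share of summits with a Pho motif was not run, since no genome was used here. The single value per summit and the coarse untagged steps limit every ChIP difference, and genes below the count filter limit what can be said of silent members.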
